A study of Macaca mulatta with 12 samples.

Results

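C-MBC 2 is 1 of the 12 B cell subtypes that the authors' annotation gives for blood of rhesus macaques, and its cells were taken by that label from the deposited cell table. It held 475 of 13849 cells, or 475 of the 13324 cells left once cells annotated as contamination were set aside. The 6 animals, named here by sex and number, were unmanipulated, healthy juveniles of Indian origin aged 2 to 3 years, with no treatment and no genetic change. Peripheral blood mononuclear cells gave a 5 prime single-cell RNA library and a B cell receptor library per animal. Both males were in batch 1 and all 4 females in batch 2, so that sex and batch cannot be told apart. C-MBC 2 was set against the other subtypes of the same animals, mainly C-MBC 1 (1290 cells), CD11c+ MBC 2 (1527 cells), M-MZL BC (1559 cells) and Naive B cells 1 (1614 cells). The labels do not spell out the letters C, M and MZL.

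A memory B cell has met antigen and persists in a resting state, and many have exchanged the constant region of the heavy chain from IgM and IgD for IgG, IgA or IgE. IgA is the main antibody class of mucosal secretions, and the joining chain, encoded by JCHAIN, links its units so that epithelium can carry them out. Memory cells also carry mutations in the variable region, acquired mostly in germinal centres.

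C-MBC 2 cells expressed the B lineage genes. The receptor components CD79A and CD79B averaged 868 ± 146 and 725 ± 271 CPM, the surface protein MS4A1 (CD20) 911 ± 297 CPM and the lineage factor PAX5 128 ± 43.8 CPM (SD, n = 6 animals). CPM here is the count of unique molecular identifiers (UMIs) of a gene per 1000000 UMIs of named, non-immunoglobulin genes, from the summed cells of an animal, scaled by the trimmed mean of M values (TMM). The sums held 334604 to 865402 UMIs over all genes, unnamed and immunoglobulin genes included. The median cell had 7412 ± 1868 UMIs, against 6101 in C-MBC 1, 7279 in CD11c+ MBC 2, 5700 in M-MZL BC and 4482 in Naive B cells 1. Both male libraries were shallower in C-MBC 2 (5231 and 4991 UMIs per median cell) than the 4 female libraries (7762 to 9495). Ribosomal protein genes took 18.8% of UMIs in C-MBC 2, against 16.0% in C-MBC 1, 13.97% in CD11c+ MBC 2, 19.1% in M-MZL BC and 21.2% in Naive B cells 1.

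The subtype was a small part of the B cells of every animal. It made up 3.53% and 3.58% of B cells in males 1 and 2, and 3.68%, 2.51%, 2.99% and 9.24% in females 1 to 4, a mean of 4.25% ± 2.48 (SD, n = 6). Female 4 stood above the other 5 animals, and her 52 C-MBC 2 cells came from only 563 B cells, where the other animals had 1596 to 3048. Without her library the mean was 3.26%.

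All 3 genes given as markers of the subtype were expressed in each animal, at unlike levels. SSPN, which encodes sarcospan, a membrane protein of the dystrophin complex of muscle, had 20.5 and 72.4 CPM in males 1 and 2 and 177, 69.7, 107 and 70.6 CPM in females 1 to 4 (86.2 ± 52.4). The next subtypes by mean were antibody-secreting cells at 43.1 CPM (3 animals) and C-MBC 1 at 42.9 ± 42.3 CPM, whose spread overlapped that of C-MBC 2. Within every animal, though, SSPN was higher in C-MBC 2 than in any other subtype with enough cells. TMEM273, a transmembrane protein of little-known function, had 128, 238, 169, 123, 221 and 176 CPM in the same order (176 ± 47.1), against 51.6 ± 17.2 CPM in Naive B cells 1 and 46.1 ± 11.3 CPM in M-MZL BC. Its lowest C-MBC 2 value thus lay far above these means. VPREB3, a protein related to the surrogate light chain of developing B cells, had 75.2, 85.4, 50.3, 36.5, 121 and 55.5 CPM (70.6 ± 30.2), and M-MZL BC carried as much (74.2 ± 39.0 CPM). VPREB3 therefore did not set C-MBC 2 apart from M-MZL BC, though it was lower in C-MBC 1 (18.7 ± 9.20 CPM).

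**Figure D1:**
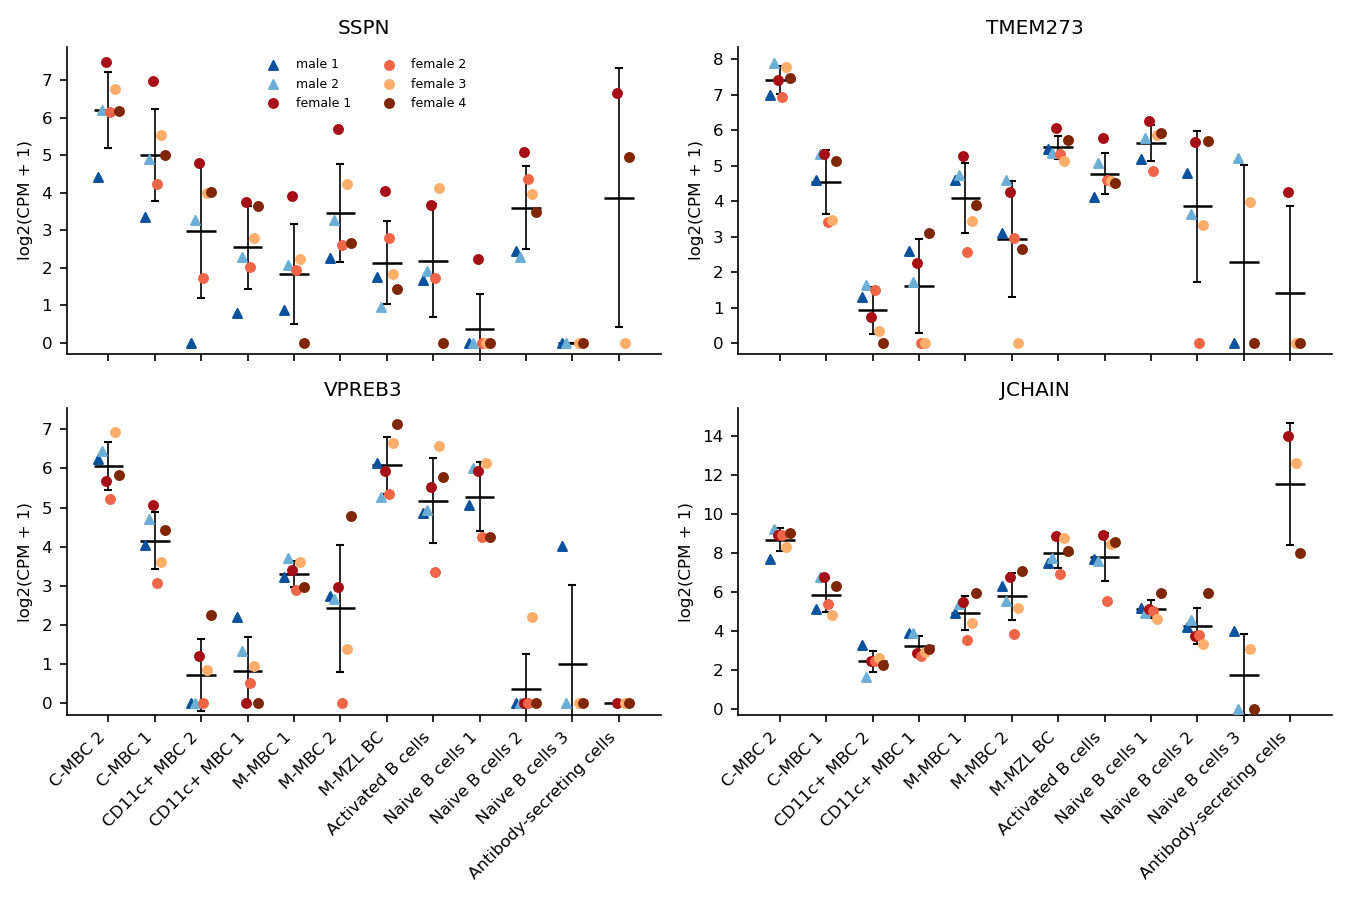
Levels of SSPN, TMEM273, VPREB3 and JCHAIN in the 12 B cell subtypes, with C-MBC 2 first. Each point is 1 animal (triangles males, circles females) as log2(CPM + 1), each line the mean over animals and each bar the SD. TMEM273 is highest in C-MBC 2, VPREB3 is as high in M-MZL BC (74.2 CPM) as in C-MBC 2 (70.6 CPM), and JCHAIN is highest in antibody-secreting cells.

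Single cells of C-MBC 2 seldom showed the whole set. At least 1 UMI of at least 1 of the 3 genes was found in 345 cells (72.6%), of at least 2 genes in 158 cells (33.3%) and of all 3 in 28 cells (5.89%). At least 2 genes were found in 15.3% and 21.9% of the cells of males 1 and 2 and in 48.0%, 22.5%, 45.1% and 48.1% of those of females 1 to 4, so that the shallower male libraries were at the low end. The same share was 5.12% in C-MBC 1, 5.20% in M-MZL BC, 2.48% in Naive B cells 1 and 0.0655% in CD11c+ MBC 2. Depth differs between these subtypes, and its part in the shares was not tested.

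Receptor contigs showed that IgG, not IgA, was the largest class in C-MBC 2. A productive receptor contig was found for 94.9% of the cells, and 335 cells had a single heavy chain with a known class: 168 IgG, 90 IgA, 61 IgM, 9 IgD and 7 IgE. The IgG cells were mostly IGHG1 (146 cells), with 19 IGHG2, 2 IGHG3 and 1 IGHG4. IgA took 20.9% and 28.1% of cells with a known class in males 1 and 2, and 28.8%, 26.1%, 28.8% and 28.6% in females 1 to 4. IgG took 53.7%, 39.1%, 48.8%, 52.2%, 57.6% and 52.4% in the same order, above IgA in each animal.

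The IgA share was nevertheless far above that of the other memory subtypes. It averaged 26.9% ± 3.10 in C-MBC 2, against 1.78% ± 2.06 in C-MBC 1, 0.213% in CD11c+ MBC 2, 1.13% ± 0.865 in M-MZL BC and 0% in Naive B cells 1 (0 of 1458 cells, which allows a share of up to 0.206%), higher in 6 of 6 animals each time. Each difference had p = 0.03125 in an exact two-sided sign-flip permutation test over 6 animals, the smallest p that this design gives. Over the 36 receptor comparisons between subtypes the smallest Benjamini-Hochberg adjusted permutation p was 0.0865, so none passed 0.05 after adjustment, and 13 had p = 0.03125 before it. C-MBC 2 held 90 of the 153 IgA cells among all B cells (58.8%). By animal its part of the IgA cells ran from 53.1% in female 3 (17 of 32 cells) to 75% in female 2 (6 of only 8 cells). Of antibody-secreting cells with a known class, pooled over animals, 15 of 32 (46.9%) were IgA, but no animal had 10 such cells, and their share lay below that of C-MBC 2 in male 2 (1 of 4 cells) and female 2 (0 of 3 cells). Named immunoglobulin genes were kept out of all expression values. The deposited table also holds unnamed identifiers, which may include constant region genes, and whether they took part in the authors' annotation, and so in the class shares, was not tested.

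**Figure D2:**
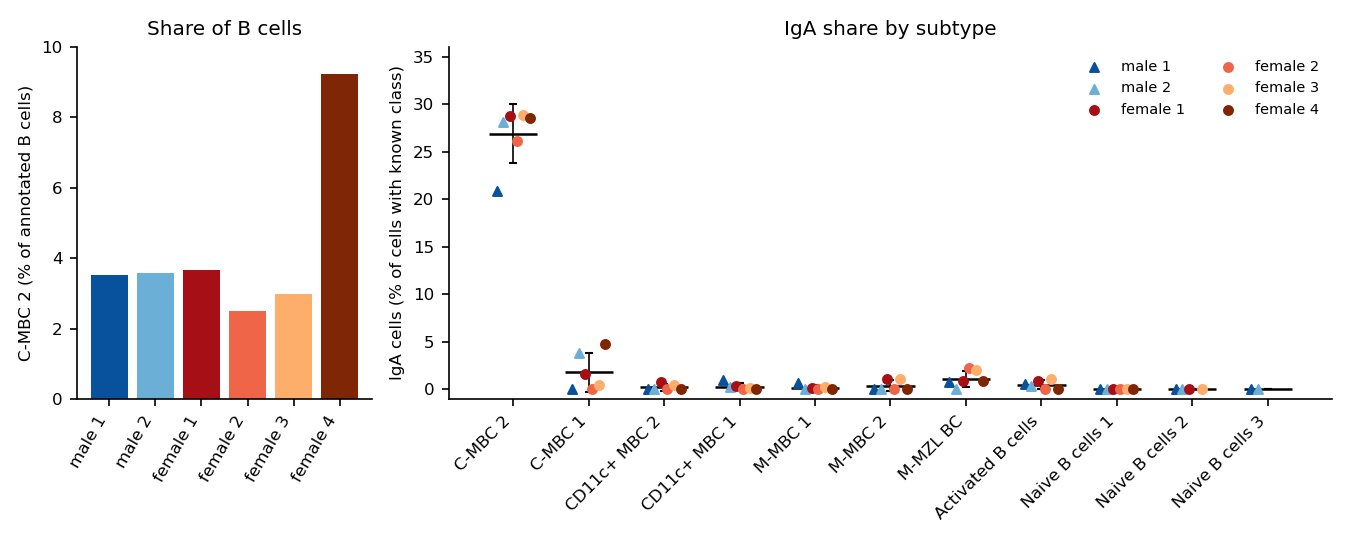
Left, bars give C-MBC 2 as a percent of annotated B cells in each animal, with female 4 (9.24%) above the others (2.51% to 3.68%). Right, IgA as a percent of cells with a known heavy chain class, by subtype, with 1 point per animal that had at least 10 such cells, the mean as a line and the SD as a bar; C-MBC 2 averaged 26.9% and C-MBC 1 1.78%.

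Class switching as a whole did not differ between C-MBC 2 and C-MBC 1 beyond the spread between animals. Switched classes (IgG, IgA and IgE) made up 74.6%, 71.9%, 78.8%, 87.0%, 86.4% and 83.3% of C-MBC 2 cells in males 1 and 2 and females 1 to 4. The mean was 80.3% ± 6.27, against 78.5% ± 11.5 in C-MBC 1 (difference 1.88 ± 7.17 percentage points, exact permutation p = 0.656, higher in 2 of 6 animals). Against CD11c+ MBC 2 at 68.5% the exact permutation p was 0.125. M-MZL BC (3.37%) and Naive B cells 1 (0.455%) were almost wholly unswitched. IgG alone was lower in C-MBC 2 in 6 of 6 animals, at 50.6% ± 6.35 against 76.5% ± 12.2 in C-MBC 1 and 68.3% in CD11c+ MBC 2.

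Heavy chain variable regions of C-MBC 2 lay further from sequences shared by unswitched cells than those of naive cells did. Divergence was counted as differences per 100 variable region bases from the nearest sequence that at least 3 unswitched cells of the same animal shared, since no macaque germline set was used. Naive B cells 1 and M-MZL BC, almost wholly unswitched, can supply such sequences themselves. Their low values, and the tests against them, are therefore in part set by the measure. C-MBC 2 had 4.32 and 5.49 in males 1 and 2 and 4.90, 5.28 and 5.22 in females 1 to 3 (5.04 ± 0.454; female 4 had too few cells). C-MBC 1 had 4.95 (difference 0.0898 ± 0.809, exact permutation p = 0.812), CD11c+ MBC 2 4.33, M-MZL BC 2.34 ± 0.234 and Naive B cells 1 0.0473. C-MBC 2 was above M-MZL BC and Naive B cells 1 in 5 of 5 animals, with an exact permutation p of 0.0625, the smallest for 5 animals, and an adjusted p of 0.132.

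The third complementarity-determining region of the heavy chain (CDR3), the junction that contacts antigen, averaged 16.0 ± 0.511 amino acids in C-MBC 2. It was longer than in M-MZL BC (14.9 ± 0.296) and shorter than in Naive B cells 1 (16.6 ± 0.232) in 6 of 6 animals, and close to C-MBC 1 (16.2) and CD11c+ MBC 2 (16.0). Kappa light chains were used by 43.1% ± 6.22 of C-MBC 2 cells, against 56.9% ± 5.82 in M-MZL BC, lower in 6 of 6 animals. The kappa share was 49.7% in C-MBC 1 (exact permutation p = 0.0938), 47.7% in CD11c+ MBC 2 and 44.2% in Naive B cells 1. The IGHV4 family supplied 50.1% ± 10.4 of C-MBC 2 heavy chains and IGHV3 36.3% ± 9.08, while IGHJ4 was used by 58.6% ± 7.57. Near-identical IGHV genes may have exchanged cells in the authors' assignment.

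**Figure D3:**
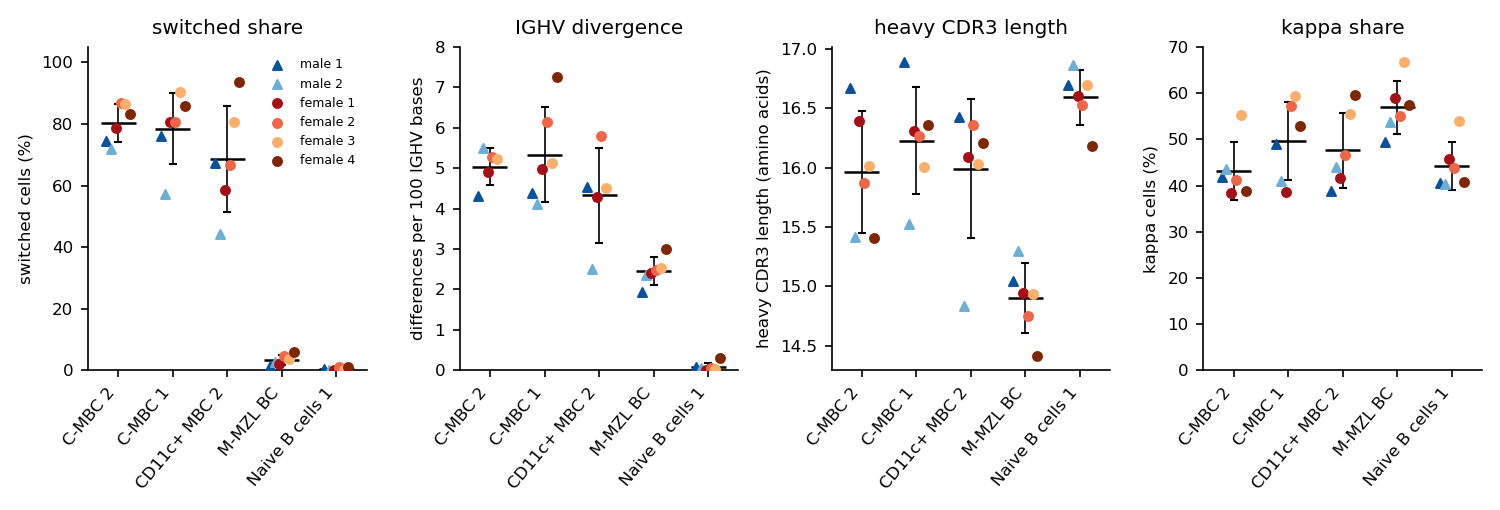
Share of switched cells (%), heavy chain divergence (differences per 100 bases), CDR3 length (amino acids) and kappa share (%) in C-MBC 2 and in 4 other subtypes. Each point is 1 animal (triangles males, circles females), each line the mean and each bar the SD. C-MBC 2 lies with C-MBC 1 and CD11c+ MBC 2 in divergence and above M-MZL BC and Naive B cells 1.

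A clone here is a group of cells that share animal, V gene, J gene and CDR3 length, with at most 10% of CDR3 bases differing. Such cells are taken to descend from a single rearranged B cell, which was not tested. The 341 C-MBC 2 cells with a single heavy chain fell into 333 clones, the largest of 2 C-MBC 2 cells. Of the 16 clones of 2 cells, 8 lay within C-MBC 2 and 8 paired a C-MBC 2 cell with a cell of C-MBC 1 (3), M-MZL BC (3) or Activated B cells (2). Expanded clones held 6.60% ± 7.33 of the cells per animal, 16.9% in male 2 and 13.6% in female 4 at the high end and 0% in male 1 and female 2. Of the 8 shared clones, 7 used the same light chain V gene in both cells.

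The CDR3 sequences of those 7 pairs are printed as deposited, 5′ to 3′, to show how alike they were in C-MBC 2 cells and cells annotated otherwise. Capitals mark the bases that differ within a pair.
Female 1 IGHV4-122, C-MBC 2 IgG: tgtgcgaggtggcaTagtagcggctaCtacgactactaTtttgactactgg
Female 1 IGHV4-122, C-MBC 1 IgG: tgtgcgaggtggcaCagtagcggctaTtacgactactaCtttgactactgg
Female 1 IGHV4-65, C-MBC 2 IgG: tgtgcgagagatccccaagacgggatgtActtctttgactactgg
Female 1 IGHV4-65, Activated B cell IgM: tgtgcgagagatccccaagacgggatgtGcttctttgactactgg
Female 3 IGHV1-198, C-MBC 2 IgG: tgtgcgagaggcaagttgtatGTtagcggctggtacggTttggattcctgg
Female 3 IGHV1-198, C-MBC 1 IgM: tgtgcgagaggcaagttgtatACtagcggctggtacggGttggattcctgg
Male 2 IGHV2-152, C-MBC 2 IgM: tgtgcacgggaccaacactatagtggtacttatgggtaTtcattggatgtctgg
Male 2 IGHV2-152, C-MBC 1 IgM: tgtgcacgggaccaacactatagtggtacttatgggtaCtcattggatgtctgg
Male 2 IGHV4-92, C-MBC 2 IgG: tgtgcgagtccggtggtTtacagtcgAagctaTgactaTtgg
Male 2 IGHV4-92, Activated B cell IgM: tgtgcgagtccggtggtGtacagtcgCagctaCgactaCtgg
Female 1 IGHV4-65, C-MBC 2 IgA and M-MZL BC IgA: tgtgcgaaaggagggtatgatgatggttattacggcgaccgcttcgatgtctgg
Female 1 IGHV3-59, C-MBC 2 IgG and M-MZL BC IgG: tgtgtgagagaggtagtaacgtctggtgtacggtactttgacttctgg

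In 3 of these pairs the C-MBC 2 cell was IgG and its partner IgM. One of the 3, the IGHV1-198 pair of female 3, had 3 CDR3 differences and 30 differences over 285 variable region bases. There the C-MBC 2 cell had a divergence of 9.47 and its IgM partner 2.46. The IgA pair of female 1 had identical CDR3s and 2 differences over 288 bases. The IGHV4-122 pair, IgG in both cells, differed at 36 of 288 bases, and the IGHV4-65 pair of IgG and IgM cells at 30 of 288. Whether pairs this far apart in the variable region share descent was not tested. With 16 clones of 2 cells in all, no comparison of clone sharing between subtypes was made.

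The genes that stood out in C-MBC 2, set beside the average of the remaining 11 subtypes, are a description, since the annotation was built on the same expression values. Of 9012 genes, 387 (4.29%) were higher and 228 (2.53%) lower by more than 1 log2 unit in the same direction in every animal. Against the other memory subtypes alone these counts were 290 and 449, and without Naive B cells 2 and 3 they were 231 and 201. In every animal C-MBC 2 had the highest level of all subtypes for 30 genes (0.333%), and the lowest for 2 (0.0222%). A log2 difference is set against the mean of log2 levels of the other subtypes and depends on the prior count where one of them is at 0. The ± after a log2 difference of a gene is the standard error of the fit, not the spread between animals. After CPM values and receptor measures ± is the SD over animals.

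Among the 30 genes highest in C-MBC 2, CR1, the complement receptor for C3b, had 223 ± 61.6 CPM, against 127 in M-MZL BC and 37.7 in C-MBC 1, and its log2 difference from the mean of the others was 2.82. LTB, the membrane-bound lymphotoxin subunit that shapes lymphoid tissue, had 853 ± 301 CPM, against 558 in Naive B cells 1. COCH, the secreted matrix protein cochlin, had 28.7 CPM, against 1.5 in C-MBC 1 and at most 4.7 in the other subtypes. THY1, a surface glycoprotein of T cells and stromal cells, had 47.4 CPM, against 10.3 in C-MBC 1. IL13RA1, a chain of the IL-13 receptor, and IL18BP, a secreted inhibitor of IL-18, were also among the 30.

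CRIP2, a LIM domain protein also among the 30, was higher by 3.46 ± 0.32 log2 units (72.7 CPM). CENPM, a centromere protein of the same 30, was higher by 2.99 ± 0.14, with 210 CPM against 80.7 in Naive B cells 1. MGLL, which hydrolyses monoacylglycerols, was not among the 30 but was higher by 2.97 ± 0.30, and likewise S100A13 (2.92) and S100A1 (2.79), both small calcium-binding proteins. MGLL was not particular to C-MBC 2, where it had 69.2 ± 22.0 CPM, since C-MBC 1 carried 97.2 ± 53.1 CPM and CD11c+ MBC 2 73.2 ± 35.5 CPM. SEPTIN3, a filament-forming GTPase and 1 of the 30, had 55.2 CPM against 10.2 in C-MBC 1, and CADM1, a cell adhesion molecule outside the 30, was higher by 2.19 log2 units.

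Genes that were low in C-MBC 2 belonged to several other subtypes. TOX2, a DNA-binding protein of the TOX family, had 4.50 CPM against 146 over the others (log2 difference -3.24 ± 0.58). UBASH3B, a phosphatase that restrains receptor signalling, had 3.49 CPM against 79.5 (-3.64 ± 0.49). AEBP1, a transcriptional repressor, had 2.25 CPM against 42.4 (-3.07 ± 0.76). SLA, an adaptor that limits antigen receptor signalling, was lower by 3.04 ± 0.46 log2 units. NR4A3, an orphan nuclear receptor of the early response, had 49.6 CPM against 250.5 (-1.69). TCL1A, a cofactor of AKT kinase in naive B cells, TBKBP1, SLC24A4 and HES4 each had a single UMI in all C-MBC 2 cells.

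**Figure D4:**
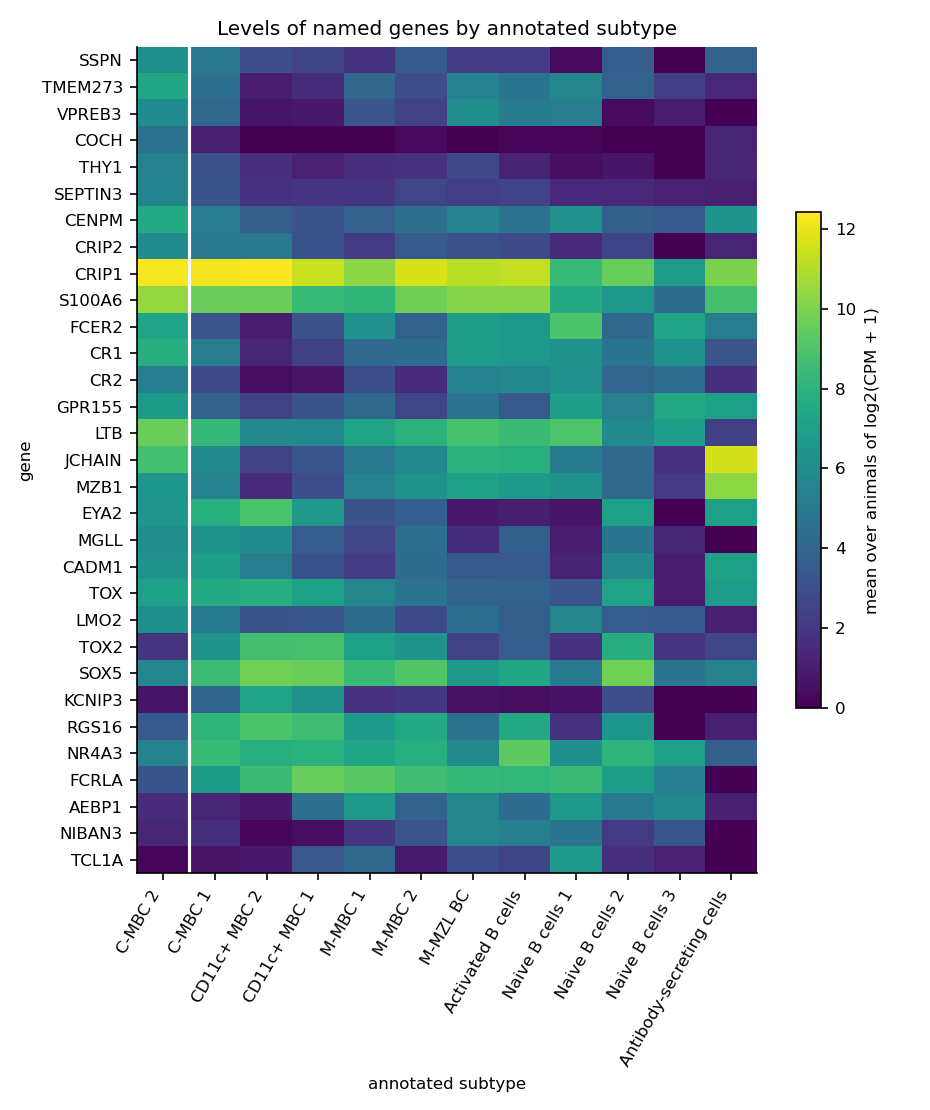
Heat map of mean log2(CPM + 1) over animals for genes named in the text (one gene per line) in the 12 subtypes, C-MBC 2 at the left. C-MBC 2 shares MGLL, EYA2 and TOX with C-MBC 1 and CD11c+ MBC 2, and FCER2 with Naive B cells 1.

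Gene lists chosen with earlier results of these data known gave a mixed memory profile. Over all genes the median log2 difference was 0.09, with 4.29% higher and 2.53% lower. Of 8 measured switched memory genes 5 were higher and none lower (median 2.11): EYA2, MGLL, CADM1, SSPN and ZBTB38, a transcriptional repressor (62.5 ± 19.3 CPM against 27.0 ± 15.5). EYA2 was higher on the log2 scale (2.48) but not by mean CPM (91.0 against 109), because a few other subtypes carried much of it. Of 21 general memory genes 8 were higher and 1 lower (median 0.58), among them CRIP1, a LIM protein (5115 ± 1584 CPM, difference 1.73), and S100A6, a calcium-binding protein (1573 ± 805 CPM, difference 1.81). Of 9 unswitched memory genes none was higher and 5 were lower (median -1.40), among them AEBP1 and TYROBP, a signalling adaptor (30.8 ± 15.0 CPM against 180.0 ± 48.6). Of 18 genes of CD11c+ atypical memory none was higher and 8 were lower (median -0.86), SOX5, a transcription factor, with 55.8 ± 23.2 CPM against 435 ± 141. Of 18 naive B cell genes 2 were higher and 3 lower (median 0.20). The switched memory genes as a list did not set C-MBC 2 apart from the other mostly switched subtypes. Compared with C-MBC 1 alone, SSPN was the only 1 of the 8 that was higher, and 2 were lower (median -0.55). Compared with CD11c+ MBC 2 alone, 2 of the 8 were higher and 3 lower (median -0.36).

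Genes tied to IgA and to mucosal homing were partly higher. Of 10 IgA-associated genes, picked on results of these cells and so no independent evidence of direction, 6 were higher and 1 lower (median 2.73). JCHAIN had 205 and 616 CPM in males 1 and 2 and 487, 488, 318 and 535 CPM in females 1 to 4 (441 ± 151). That was above the means of M-MZL BC (284 ± 143) and C-MBC 1 (66.8) and below that of antibody-secreting cells (7648). CCR9, the chemokine receptor that guides lymphocytes to the small intestine, was low at 15.1 ± 17.2 CPM, with a log2 difference of 3.50. Of 29 homing genes 6 were higher and 2 lower (median 0.14). ITGA4, the alpha 4 integrin chain, had 300.0 CPM in C-MBC 2 against 96.0 in C-MBC 1 and 129 in M-MZL BC. Its gut-homing partner ITGB7 had 164 CPM, as much as C-MBC 1 (160.0 CPM) and less than CD11c+ MBC 2 (182 CPM).

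The counts of further lists stand beside 4.29% higher and 2.53% lower over all genes. A count of 1 or 2 genes is given as a value, not as a result about its list. Of 17 plasma cell genes 4 were higher (JCHAIN, MZB1, TNFRSF17 and SLAMF7) and none lower. Of 19 genes of the tumour necrosis factor and NF-kB family 5 were higher (CD40, CD70, TNFRSF13C, TNFRSF17 and LTB) and none lower. TNFRSF17 is a member of both lists. Of 9 surrogate light chain and pre-B genes VPREB3 alone was higher (median -0.21), and of 6 dystrophin complex genes SSPN alone was higher and 1 was lower (median -0.30). Of 8 germinal centre genes LMO2 was higher (2.16) and BCL6 lower (-1.43). Of 20 B cell receptor signalling genes the kinases LYN and SYK were lower and none was higher. All 17 measured ribosomal protein genes (median 0.59) and all 21 measured oxidative phosphorylation genes (median 0.54) had differences above 0, beside 0.09 for all genes, and none of them passed 1 log2 unit in every animal. The other subtypes include Naive B cells 2 and 3 and antibody-secreting cells, with only 3.91%, 4.83% and 7.51% ribosomal UMIs. Their part in these medians was not tested. C-MBC 2 at 18.8% lay below M-MZL BC (19.1%) and Naive B cells 1 (21.2%).

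Set against C-MBC 1, the nearest subtype in class switching and divergence, C-MBC 2 had more of a few naive B cell genes and less of most genes of atypical memory. Of 9012 genes 193 (2.14%) were higher and 358 (3.97%) lower. FCER2, the low-affinity IgE receptor CD23, had 175 ± 117 CPM against 16.9 ± 18.1 (log2 difference 3.41 ± 0.34). GPR155, a lysosomal cholesterol sensor, had 108 ± 18.3 CPM against 14.8 (2.91). Of 18 naive B cell genes 3 were higher, FCER2 and RFLNB, a filamin-binding protein, among them, and none lower, and of 21 memory genes 3 were higher and 5 lower. RGS16, a regulator of G protein signalling, had 12.9 ± 8.52 CPM against 297 ± 153 (-4.45 ± 0.37). GPR153, an orphan receptor, was down to 2 UMIs (0.466 CPM against 28.2).

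Of 18 genes of CD11c+ atypical memory none was higher in C-MBC 2 than in C-MBC 1 and 13 were lower (median -1.95; all genes -0.02). ITGAX, which encodes CD11c, had 65.8 ± 18.7 CPM against 318 ± 109, with C-MBC 2 animals between 37.7 and 88.2 and C-MBC 1 animals between 226 and 460.3. ZEB2, a transcription factor of these cells, had 158 ± 33.5 CPM against 570 ± 110. TBX21, which encodes T-bet, had 4.11 ± 3.93 CPM against 29.1 ± 12.3. FCRL5, an inhibitory Fc receptor-like protein, had 60.4 ± 26.4 CPM against 282 ± 78.7.

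Immediate early genes, which are induced within minutes of stimulation, were also lower than in C-MBC 1: 12 of 20 were lower and none higher (median -1.28). FOS averaged 1830 ± 1096 CPM against 4855 ± 2717, and EGR1 359 ± 239 CPM against 1401 ± 697. NR4A1, a nuclear receptor induced by antigen receptor signalling, averaged 430 ± 195 CPM against 1366 ± 552. The SDs of FOS are wide, and its 2 group spreads overlap.

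The contrast with C-MBC 1 was repeated on IgG cells alone, so that both sides held a single class. Of 4004 genes 47 (1.17%) were higher and 205 (5.12%) lower in IgG cells of C-MBC 2 than in IgG cells of C-MBC 1, or 70 and 161 when libraries were scaled by relative log expression. FCER2 had 193 CPM against 11.1 (3.94 ± 0.31) and TMEM273 195 against 17.4 (3.51). RGS16 had 6.67 CPM against 289 (-5.23 ± 0.34), and its relative RGS2 25.8 against 303 (-3.51). Of 10 CD11c+ atypical memory genes 9 were lower (median -2.34; all genes -0.11), and of 18 immediate early genes 8 (median -0.98).

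Against M-MZL BC, which was as rich in VPREB3 but unswitched, 218 genes (2.42%) were higher and 230 (2.55%) lower of 9012. EYA2, a transcriptional coactivator with phosphatase activity, had 91.0 CPM in C-MBC 2 against 0.961 (6.33 ± 0.45). TOX had 164 CPM against 16.0 (3.31), and SSPN differed by 4.16. NIBAN3, a B cell protein of the Niban family, had 2.03 CPM against 56.1 (-4.62), FCRLA, an intracellular Fc receptor-like protein, 20.7 against 354 (-4.01), and AEBP1 2.25 against 73.0 (-4.77). Of 8 switched memory genes 6 were higher (median 2.38; all genes -0.04), of 9 unswitched memory genes 6 lower (median -2.78), and of 6 FCRL genes 4 lower (median -1.83). Of 15 marginal zone genes none was higher and 5 were lower.

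Against CD11c+ MBC 2 the differences were the widest, with 391 genes (4.34%) higher and 607 (6.74%) lower of 9012. TMEM273 had 176 CPM in C-MBC 2 against 1.07 (7.44 ± 0.40) and FCER2 175 against 1.38 (7.37). Both complement receptors differed, CR1 with 223 CPM against 1.89 (6.81) and CR2 with 42.4 against 0.393 (6.37). MZB1, a chaperone of immunoglobulin assembly, had 98.9 CPM against 2.42 (6.40). TOX2 had 4.50 CPM against 445 (-6.56), and KCNIP3, a calcium-binding protein, 1.08 against 176 (-7.33). ITGAX had 65.8 CPM against 955, and 13 of 18 CD11c+ atypical memory genes were lower and 1 higher (median -2.42; all genes -0.01).

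Within C-MBC 2, IgA and IgG cells of the same 6 animals were compared, a contrast that the subtype label does not name. The IgA sums held 6 to 23 cells and 61515 to 228082 UMIs over all genes, the IgG sums 12 to 39 cells and 106324 to 339646 UMIs. In edgeR's quasi-likelihood test with the animal as a block, 4 of 2572 genes were higher (0.156%) and 61 lower (2.37%) in IgA cells at a Benjamini-Hochberg adjusted p under 0.05. With DESeq2 20 genes passed, with scaling by relative log expression 41 and without the animal block 0 (108 at an unadjusted p under 0.05). Leaving out female 3 left 26 genes, leaving out female 1 left 35 and leaving out male 1 left 37.

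The genes lower in IgA cells were led by immediate early genes. DUSP2, a phosphatase that shuts off MAP kinases, had 67.7 and 21.8 CPM in IgA cells of males 1 and 2 and 157, 31.9, 319 and 233 CPM in those of females 1 to 4. IgG cells of the same animals had 756, 1660, 976, 52.0, 1979 and 1437 CPM. IgA was below IgG in 6 of 6 animals, and female 2 was low in both (log2 difference -2.99 ± 0.22, edgeR adjusted p = 1.3e-10).

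FOS, a subunit of the transcription factor AP-1, had 632, 283, 1686, 0, 1225 and 1049 CPM in IgA cells, against 1494, 3112, 3528, 104, 4013 and 3078 CPM in IgG cells (-1.69 ± 0.17, edgeR adjusted p = 1.76e-07). IgA was lower in 6 of 6 animals. NR4A1 had 67.7, 65.4, 324, 15.9, 387 and 138 CPM in IgA cells, against 714, 618, 797, 83.2, 919 and 681 CPM in IgG cells (-1.88 ± 0.21, edgeR adjusted p = 7.88e-07). The NR4A1 values of IgG cells exceeded every IgA value except in female 2. EGR1, a zinc finger factor of the same early response, had 79.0, 10.9, 318, 0, 93.7 and 74.2 CPM in IgA cells, against 537, 1228, 639.8, 0, 608 and 477 CPM in IgG cells (-2.40 ± 0.30, edgeR adjusted p = 4.74e-06). It was lower in 5 animals and at 0 in both classes of female 2.

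Activation markers followed. CD69, which holds lymphocytes in tissue, had 147, 621, 371, 63.7, 1362 and 678 CPM in IgA cells, against 829, 2687, 1071, 72.8, 2309 and 1346 CPM in IgG cells (-1.40 ± 0.16, edgeR adjusted p = 1.65e-06). IgA was lower in 6 of 6 animals, by little in female 2. CD83 differed by -1.16 ± 0.15 (edgeR adjusted p = 4.74e-06) and ZFP36L1, which promotes decay of messenger RNAs, by -1.20 ± 0.15 (edgeR adjusted p = 2.74e-06), both in 6 of 6 animals. CD74, the invariant chain of MHC class II, averaged 17937 ± 3805 CPM in IgA cells and 22772 ± 3381 CPM in IgG cells, lower in 6 of 6 animals (-0.36 ± 0.05, edgeR adjusted p = 4.54e-05). DESeq2 did not call CD74 (adjusted p = 0.126; 9.38e-09 to 0.891 over the alternatives), and without the animal block none of these 8 genes passed (adjusted p 0.144 to 0.993).

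Of 15 immediate early genes tested 11 were lower in IgA cells and none higher (median -0.79; all genes -0.08). These included NR4A2 (-1.14 ± 0.17), FOSB (-1.10 ± 0.18) and JUN (-0.79 ± 0.16). Of 12 naive B cell genes 4 were lower and none higher, among them FCER2 (106 ± 59.8 against 211 ± 154 CPM), CCR7, a lymph node homing receptor (151 ± 67.0 against 288 ± 128 CPM), and BTG1. PAX5 was lower as well (51.4 ± 30.0 against 137 ± 53.8 CPM, in 6 of 6 animals).

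JCHAIN led the 4 genes higher in IgA cells. It had 373, 447, 559, 956, 587 and 827 CPM in IgA cells, against 159, 797, 216, 125, 214 and 300.3 CPM in IgG cells, and male 2 alone went the other way (1.14 ± 0.24, edgeR adjusted p = 0.0049). TCF20, a transcriptional coregulator, averaged 119.7 CPM against 51.2 (1.19 ± 0.28, edgeR adjusted p = 0.0146), higher in 6 of 6 animals. CCDC50, a ubiquitin-binding protein, averaged 286 CPM against 168 (0.78 ± 0.18, 5 of 6 animals), and TBC1D9 284 against 167 (0.76 ± 0.18, 6 of 6 animals). These 4 calls rest on single libraries more than the lower ones do. JCHAIN was not called without female 3 (1.09), nor by DESeq2. TCF20 was not called without female 4 (0.92), CCDC50 without male 1 or females 1, 3 or 4 (0.65 to 0.82), and TBC1D9 without male 1 or females 1 or 3 (0.72 to 0.84).

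**Figure D5:**
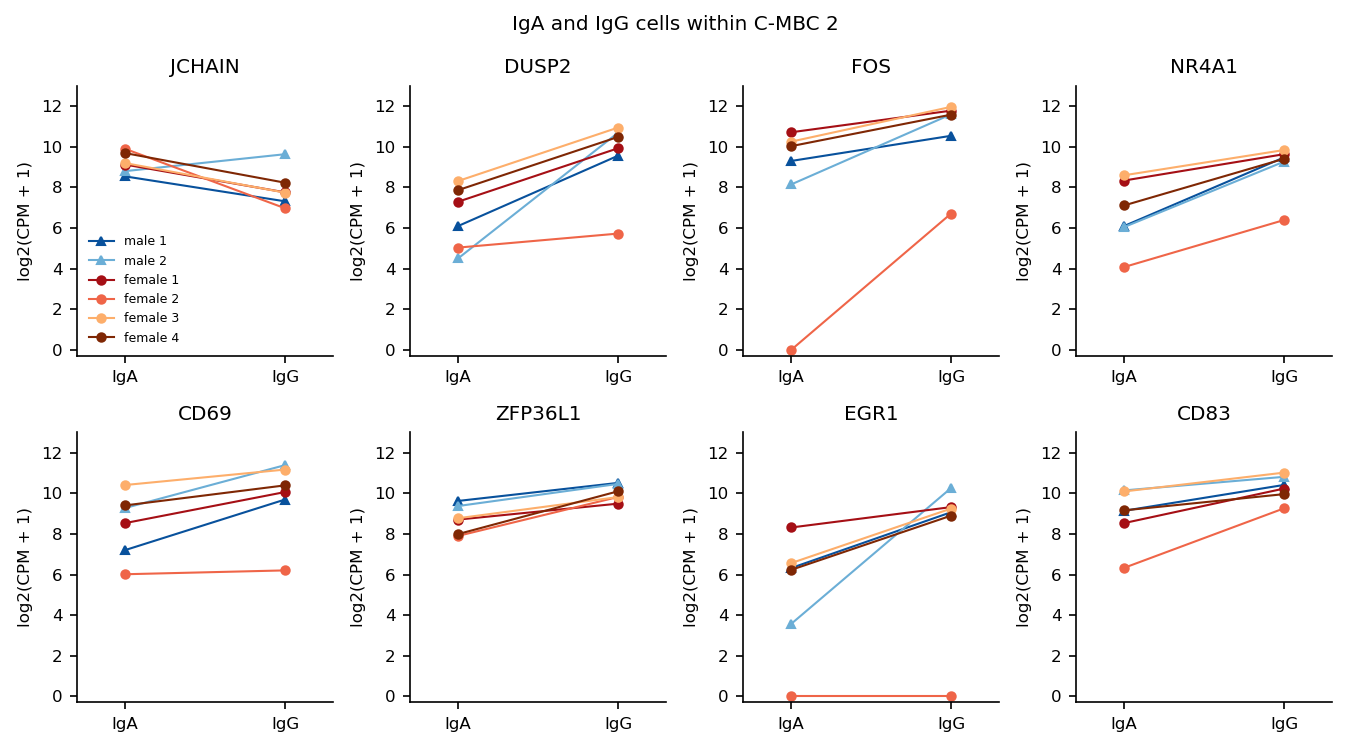
Levels, as log2(CPM + 1), of JCHAIN, DUSP2, FOS, NR4A1, CD69, ZFP36L1, EGR1 and CD83 in IgA cells (left) and IgG cells (right) of C-MBC 2. Each point is 1 animal (triangles males, circles females) and a line joins the sums of an animal. JCHAIN is higher in IgA cells in 5 of 6 animals and the other genes are lower, EGR1 with female 2 at 0 in both classes.

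The IgA sums held fewer cells than the IgG sums. The median IgA cell had 8659 ± 2096 UMIs and the median IgG cell 7848 ± 1770, but IgA cells were the shallower ones in male 2 (5788 against 6178 UMIs) and female 4 (9157 against 9659). Mitochondrial shares were 2.16% in IgA cells and 2.26% in IgG cells, and ribosomal shares 18.1% and 19.3%. Summed markers of antibody-secreting cells, a list that includes JCHAIN, were higher in IgA cells (871 ± 316 CPM) than in IgG cells (452 ± 214 CPM), and their part in the result was not tested. Summed T cell (241 against 213 CPM), NK cell (188 against 185 CPM) and monocyte markers (86.4 against 78.6 CPM) were slightly higher by mean in IgA cells. Outside C-MBC 2, 4 animals had enough IgA cells for a description, with 43 IgA and 1647 IgG cells. These cells were pooled over the other subtypes, without antibody-secreting cells. The classes were unevenly spread, with 76.5% IgG and 1.78% IgA in C-MBC 1 but 2.24% and 1.13% in M-MZL BC. Class and subtype therefore cannot be told apart in these sums. FOS, NR4A1, EGR1 and CD74 were lower in IgA cells in 4 of 4 animals, DUSP2 and CD83 in 2 and CD69 and ZFP36L1 in 1. JCHAIN and CCDC50 were higher in 4 of 4.

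The receptors of IgA and IgG cells of C-MBC 2 did not differ beyond the spread between animals in any of 5 measures (smallest exact permutation p = 0.125, smallest adjusted p = 0.521). Divergence was 5.73 ± 1.34 per 100 bases in IgA cells and 5.46 ± 0.944 in IgG cells (n = 5 animals). CDR3 length was 15.5 ± 0.977 amino acids in IgA cells and 16.4 ± 0.510 in IgG cells, shorter in 5 of 6 animals. Kappa took 48.4% ± 14.7 of IgA cells and 40.8% ± 8.12 of IgG cells.

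Switched and unswitched C-MBC 2 cells were compared in the 5 animals with enough of both, without female 2 (20 to 63 switched and 7 to 18 unswitched cells per sum). Of 3230 genes 18 (0.557%) were higher and 3 (0.0929%) lower in switched cells in edgeR's quasi-likelihood test. Scaling by relative log expression gave 10 and 7, and moved the median of all genes to -0.00, where TMM gave 0.13, so that differences near this size carry no direction. DESeq2 called 1 gene, edgeR without the animal block 0 (161 at an unadjusted p under 0.05), and edgeR without female 3 called 12. TOX, a DNA-binding protein, had 73.5 and 207 CPM in switched cells of males 1 and 2 and 234, 224 and 226 CPM in those of females 1, 3 and 4. Unswitched cells of the same animals had 62.5, 55.4, 15.4, 95.9 and 27.2 CPM. Switched cells were higher in 5 of 5 animals, by little in male 1, whose switched value lay below the unswitched value of female 3 (2.03 ± 0.35, edgeR adjusted p = 0.00191).

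S100A1 averaged 253 CPM in switched cells and 91.3 CPM in unswitched cells (1.47 ± 0.28, edgeR adjusted p = 0.00523). S100A10, a partner of annexin A2, averaged 1651 and 967 CPM, and CRIP1 5650 and 3756 CPM, all in 5 of 5 animals. TESC, a calcium-binding protein, TEX9 and CD69 were also higher in 5 of 5 animals. PTPRJ, a receptor tyrosine phosphatase, averaged 46.7 CPM in switched cells and 132 CPM in unswitched cells (-1.54 ± 0.30, 4 of 5 animals, edgeR adjusted p = 0.00618). PLEKHG1 (-0.72) and FKBP5 (-0.88), a chaperone induced by glucocorticoids, were the other 2 lower genes. PLEKHG1 lost its call without any 1 of the 5 animals (-0.78 to -0.54), and FKBP5 without any but female 4 (-0.88 to -0.69). Of 17 immediate early genes 4 were higher (JUN, EGR1, DUSP2 and CD69) and none lower.

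Markers of other cell types were found in C-MBC 2 sums, in part above the mean of the other subtypes. Summed T cell markers had 233 ± 119 CPM (118 to 424 by animal) against 218 ± 137 over the other subtypes, dendritic cell markers 177 ± 28.5 against 145, and platelet and red cell markers 228 ± 117 against 206. Most of the dendritic cell sum in C-MBC 2 was a single gene, IRF8, with 161 CPM (467 UMIs). NK cell markers had 168 ± 66.1 CPM against 258, monocyte markers 83.9 ± 22.2 against 263 and antibody-secreting cell markers 644 ± 169 against 803 ± 995. The last of these means includes the antibody-secreting cells themselves. Summed antibody-secreting cell markers were lower than in C-MBC 2 by mean in M-MZL BC (528 ± 184 CPM), C-MBC 1 (245), Naive B cells 1 (221) and CD11c+ MBC 2 (149). CCL5, a chemokine of T and NK cells, had 314 UMIs in C-MBC 2 and was higher than the mean of the others by 1.32 ± 0.29 log2 units (107 ± 53.4 against 86.4 ± 56.2 CPM), though lower than in C-MBC 1. HBA, a haemoglobin chain of red cells, had 287 UMIs and was higher by 1.75 ± 0.42 log2 units (108 ± 103 against 56.2 ± 66.7 CPM), with 313 CPM in male 2. PPBP and PF4 of platelets had 201 and 132 UMIs, and CD3D of T cells 195. None of the 15 T cell markers or of the platelet and red cell markers was at 0. GZMA among NK cell markers, MARCO among monocyte markers, SDC1 among antibody-secreting cell markers, and CLEC9A, XCR1, CLEC4C, FCER1A and CLEC10A among dendritic cell markers had no UMI in any C-MBC 2 cell. The part of these other cell types in the results was not tested.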

How the data were processed

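Seurat 5.0.1, R 4.3.1 and Cell Ranger 9.0.1 were named, per the submitters' processing notes, with no role stated. A genome build, an annotation or a receptor reference is not given in the sources used here. Deposited by the authors were raw counts, as UMIs, for 22584 genes and 13849 cells, a cell table with their subtype annotation, and receptor contigs. That cell table also gives the percent of mitochondrial and ribosomal UMIs, as the authors computed it. All 13849 cells carried the authors' singlet call, and no doublet caller was run. Cells annotated as contamination (525) were left out. Of the barcodes, 96 occurred in at least 2 libraries, 7 C-MBC 2 cells among them.

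Counts were summed per animal and subtype (at least 10 cells) or heavy chain class (at least 5 cells). Naive B cells 3 of females 1 and 2 and antibody-secreting cells of female 2 and both males fell under the minimum. The 5813 unnamed identifiers (14.88% of UMIs), none matched to a name, and the 23 named immunoglobulin genes (0.1862%) were left out. edgeR 4.0.16 (limma 3.58.1, R 4.3.3) fitted quasi-likelihood models after filterByExpr and TMM, with the animal as a block, since the same animals gave every sum being compared. Contrasts between subtypes were not tested, because the annotation rests on the same values; a gene was counted past 1 log2 unit with the same direction in every animal. P-values within C-MBC 2 were adjusted by Benjamini-Hochberg over all genes tested, with a threshold of 0.05. Alternatives used DESeq2 1.42.0, other scaling, other minimums, no block and fewer animals.

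The genes named were those with the largest difference, 12 per direction against the mean of the other subtypes and 6 per single subtype, among genes of mean log2 CPM of at least 4 that moved one way in every animal; list members with the largest difference; and, within C-MBC 2, the 8 per direction with the smallest p. ITGA4, ITGB7, ITGAX, TBX21, ZEB2, FCRL5, NR4A2, FOSB, JUN, PAX5, RGS2 and the genes highest in every animal were named after their values were seen. The members and gene lists were chosen with earlier results of these data known.

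Receptor measures used cells with a single productive heavy chain, at least 10 per animal and subtype or 5 per class, and exact two-sided sign-flip permutation tests over animals. Divergence was counted to the nearest V sequence of the same animal, gene and length shared by at least 3 unswitched cells with different CDR3s. The gene and receptor steps were tested on simulated data. Python 3.11.15, numpy 2.4.6, pandas 2.3.3, scipy 1.17.1 and matplotlib 3.10.9 were used. The depth behind C-MBC 2 was 334604 to 865402 UMIs per animal over all genes, and fewer cells per sum limit the precision within the subtype. Some genes that the naming rule gave are not reported here.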

Additional observations from a re-analysis of the deposited data

Results flagged for a closer look

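Of 69 groups of animals examined with Dixon's test for a value far from the others, 8 held one, and chance gives about 1 in 20. Female 4 lay above the other animals in the C-MBC 2 share, with 9.24% of annotated B cells, 9.90% when Naive B cells 2 and 3 were left out and 9.22% of cells with a productive heavy chain. Male 1 had the lowest IgA share of C-MBC 2, 20.9%, and the same 20.9 percentage points as its difference from CD11c+ MBC 2 and from Naive B cells 1, both of which held no IgA cell in that animal. Female 3 had the highest kappa share of C-MBC 2, 55.2%. In female 4 the kappa share of C-MBC 2 minus that of CD11c+ MBC 2 was -20.7 percentage points, the most negative of the animals.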

How the results depend on the processing

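Beside 615 genes past 1 log2 unit against the other subtypes, 1079 passed with no filter on low counts and 638 to 811 when an animal was left out. Both males alone, a setting chosen after seeing the data in which 2 animals suffice for one direction, gave 1480 genes against the others, 1237 against C-MBC 1 (551 with all animals), 1035 against M-MZL BC (448), 1936 against CD11c+ MBC 2 (998) and 512 for IgG cells alone (252; 514 with no filter). Leaving out an animal gave 558 to 683, 463 to 538, 1023 to 1226 and 240 to 283 for these 4 contrasts.

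The tests within C-MBC 2 rest on the pairing by animal. Without the replicate block 0 genes passed in edgeR between IgA and IgG cells (108 at an unadjusted p under 0.05; DESeq2 with the block 20) and 0 between switched and unswitched cells (161 at an unadjusted p under 0.05; DESeq2 1); without it the other counts were 617, 548, 449, 1016 and 258. IgA against IgG gave 65 genes, 41 with relative log expression scaling and 26 to 60 when an animal was left out, 26 without female 3, 35 without female 1 and 37 without male 1. Switched against unswitched gave 21 genes, 58 with no filter, 36 with unnamed and immunoglobulin genes in library sizes, 0 in sums of at least 10 cells (3 animals; 295 at an unadjusted p under 0.05) and 12 to 24 when an animal was left out, 12 without female 3. JCHAIN passed in 9 of 12 alternatives, and DUSP2, FOS, NR4A1, CD69, ZFP36L1, EGR1 and CD83 in 11 of 12.

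Signs turned only among differences that were not past a threshold, and the cause was not tested. CD3G (-0.48) and NOD2 (-0.33) turned against memory subtypes only, and PPBP (0.0348) in males only. Against C-MBC 1 the clone share difference was -0.0911 points, 0.0878 with at least 2 UMIs, 1.68 with clones by identical CDR3 (chosen after seeing the data) and -2.84 to 1.22 when an animal was left out; such ranges were -0.659 to 3.07 for the switched share, -0.230 to 0.330 for divergence and -1.48 to 4.38 for IGHV4. Against CD11c+ MBC 2 IGHV4 gave 0.195, -0.0395 with cells of 2 heavy chains and -5.17 to 4.48; CDR3 length -0.0289, 0.0102 with at least 2 UMIs and -0.151 to 0.126; clones -1.33 to 2.12. Against Naive B cells 1 IGHV4 ran from -4.94 to 0.960 and kappa from -1.92 to 0.196. IgA minus IgG divergence ran from -0.269 to 1.03 and IGHV3 from -6.76 to 1.66. The IgA share difference from C-MBC 1 ran from 24.4 to 25.9 points.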
